A study of Mus musculus with 12 samples.

Results

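The 10 genes described here encode membrane carriers of sugars, metals, vitamins, phosphate and related solutes: Slc2a2, Slc50a1, Slc45a3, Slc35a4, Slc39a5, Slc30a10, Slc5a6, Slc20a1, Slc44a3 and Slc46a3. They were picked by symbol from a table of 336 genes that the authors had listed as different between livers of mice on a high-fat diet (HFD) and livers of mice on chow, and all 10 were found there. That listing rests on the HFD against chow contrast, so the values of these genes in it are a description of genes chosen for differing, and no test on them is offered as support. Liver RNA came from 12 C57BL/6N mice deficient in PXR (the pregnane X receptor, a nuclear receptor for foreign compounds), with a single library from each mouse and 4 groups of 3 mice. All 4 groups carry the PXR deficiency, chow controls included, and neither the way the receptor was disrupted nor the sex of the mice is given by the labels. From 6 weeks of age the mice were fed chow or HFD over 18 weeks. The chow group (mice 670, 695 and 707) and the first HFD group (mice 659, 669 and 696) have no treatment in the labels. The other HFD-fed groups were injected intraperitoneally once a day for 4 days, 3 mice with 30% DMSO in corn oil and 3 with pregnenolone-16alpha-carbonitrile (PCN, a ligand of rodent PXR) at 50 mg/kg.

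Solute carriers are proteins that move small polar molecules across membranes that such molecules do not cross by themselves. In liver, GLUT2 (Slc2a2) lets glucose pass across the hepatocyte surface in both directions, while other carriers bring in zinc, vitamins and phosphate or export metals. Some carriers work at internal membranes, such as those of the Golgi and the lysosome, and several members of the superfamily still have no settled substrate.

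Values below are normalized read counts, that is the deposited counts divided by a size factor per mouse recovered from the authors' mean column. The size factors ran from 0.829 (chow mouse 707) to 1.14 (HFD mouse 696), and counts summed over the 336 listed genes ran from 547431 to 920106 per mouse. The full depth of each library is unknown, because only selected genes were held. Nr1i2, which encodes PXR, was not analysed here, so the genotype could not be checked. Of 12 hepatocyte markers, 0 were among the diet rows and 1, Tat, was among the PCN rows, so the tissue label was not checked in the diet table. The libraries are from bulk tissue, in which fewer cells of a type and less RNA per cell cannot be told apart.

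In HFD-fed mice 8 of the 10 carriers were higher and 2, Slc45a3 and Slc30a10, were lower, with ratios of group means between 1.70-fold (Slc35a4) and 3.52-fold (Slc39a5). The authors had listed 336 of about 24980 genes tested, 1.35%, of which 0.861% of the genes tested were higher and 0.484% lower. Listing is how these genes were chosen, so nothing is read from the 10 of 10. The 3 HFD mice did not overlap the 3 chow mice for any of the 10 genes, which was also so for 99.4% of all listed genes. The median log2 fold change in the authors' deposited table was 0.77 over the 10 carriers and 0.77 over the 336 rows, and the median absolute value was 0.79 for the carriers and 0.91 for all rows. In that table the carriers closest to the limits of listing were Slc35a4, with the smallest absolute log2 fold change of the 10 (0.69, where the smallest of any row was 0.60), and Slc50a1, with their largest adjusted p (0.0331, where the largest of any row was 0.0474). A refit of the listed counts with edgeR's quasi-likelihood test, adjusted over all genes the authors tested, called 0 of the 10 carriers (8 higher and 2 lower at an unadjusted p under 0.05) and 2.73% of the 330 listed rows fitted, 8 higher and 1 lower. DESeq2 fitted with the same size factors and adjustment called 2 carriers, Slc5a6 and Slc20a1, and 47.3% of the 336 listed rows, 105 higher and 54 lower. Both refits estimated dispersion (the spread between mice beyond counting) from the listed rows alone, where the authors had all genes. Their p-values are therefore not directly comparable with the authors'. These refits use the contrast that chose the genes and are given as a limit on the listing, not as a test of it.

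**Figure D1:**
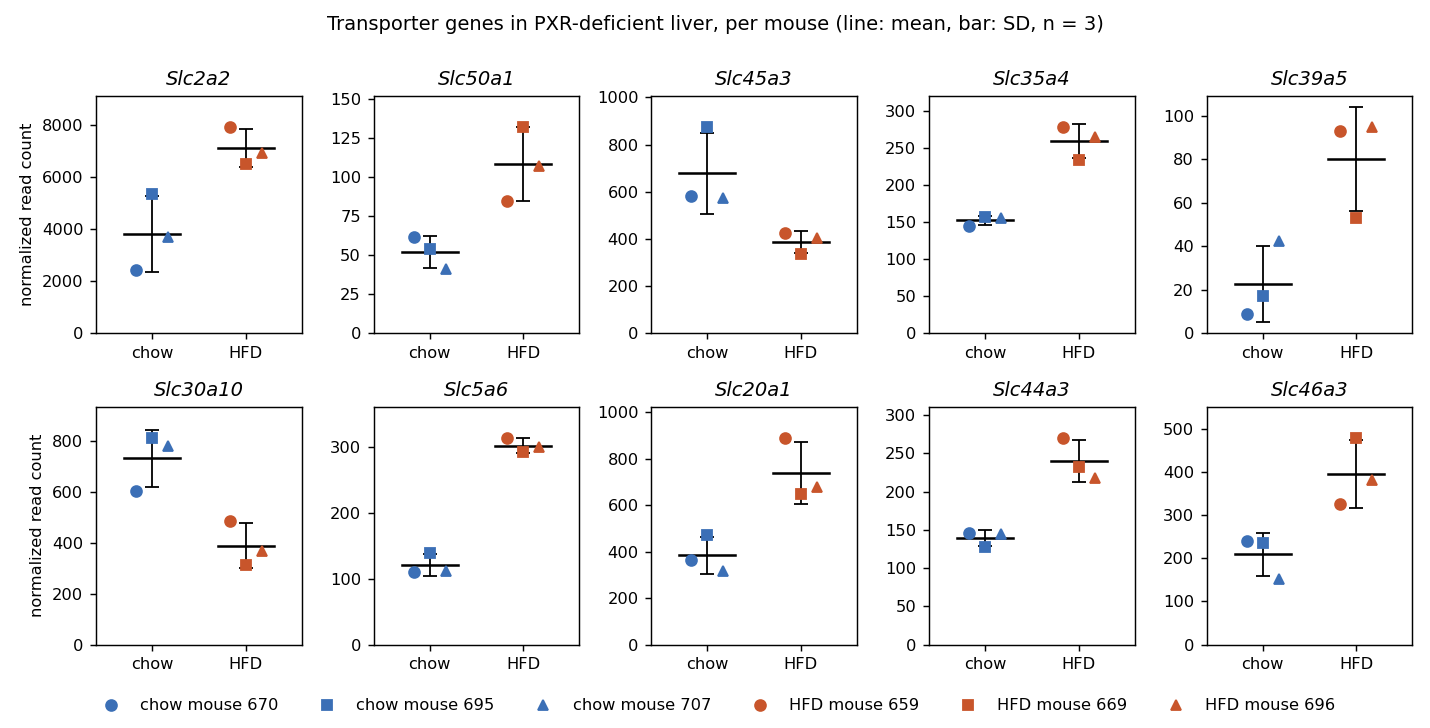
Normalized read count (vertical axis, starting at 0) of each of the 10 carriers in 3 chow mice (blue) and 3 HFD mice (orange), with symbols for the mice, a line for the group mean and a bar for the SD. The groups do not overlap in any panel, Slc45a3 and Slc30a10 are lower in HFD mice, and the chow mice are widely spread for Slc2a2 and Slc39a5.

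Among the sugar carriers, Slc2a2 was by far the most abundant. Slc2a2 encodes GLUT2, the facilitative glucose transporter of hepatocytes and pancreatic beta cells, and lies on chromosome 3 from 28697903 to 28731359 (plus strand, GRCm38; 11 merged exons). Its normalized counts were 2436, 5352 and 3703 in chow mice 670, 695 and 707, and 7950.5, 6518 and 6918.5 in HFD mice 659, 669 and 696. The chow mice differed among themselves 2.20-fold, and the HFD mice 1.22-fold. Mouse 695, the highest of the chow group, came within 1.22-fold of mouse 669, the lowest of the HFD group. The means were 3830.1 ± 1462 on chow and 7129 ± 739 on HFD (SD, n = 3 each), a ratio of 1.86. That ratio was 2.32 without chow mouse 695 and 1.57 without chow mouse 670. The authors' deposited log2 fold change of Slc2a2 was 0.75 (SE 0.21, adjusted p = 0.0287), smaller than the log2 ratio of means, 0.90, as the deposited value was for each of the 10 carriers.

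The promoter window of Slc2a2 is shown because this gene carries most of the carrier signal. It is the RefSeq sequence of chr3:28697653-28697952 on the plus strand of GRCm38.p6, from 250 bases before the start site to 50 bases after it, with matches to CCAAT on either strand in capitals.
Slc2a2: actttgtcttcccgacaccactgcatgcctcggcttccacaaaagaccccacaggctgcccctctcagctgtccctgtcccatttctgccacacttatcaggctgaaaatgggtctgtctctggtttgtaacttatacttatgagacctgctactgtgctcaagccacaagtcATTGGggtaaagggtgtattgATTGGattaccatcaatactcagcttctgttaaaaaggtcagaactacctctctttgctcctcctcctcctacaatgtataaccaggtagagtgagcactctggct
Both matches are on the minus strand, 77 and 56 bases before the start site. CCAAT occurred in 37.4% of all 32851 promoter windows and in 6 of the 13 windows of these carriers, which belong to 6 of the 9 carriers that have one. The Slc2a2 window has a GC content of 48.0%, the lowest of the 13 windows of these carriers, against a median of 52.7% over all windows.

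Slc50a1 and Slc45a3, the other carriers with a described or proposed sugar substrate, differed in direction. Slc50a1 encodes SWEET1, a sugar uniporter, and lies on chromosome 3 from 89268246 to 89270570 (minus strand). It had 61.6, 53.8 and 41.0 normalized counts in chow mice 670, 695 and 707 against 84.9, 132 and 107 in HFD mice 659, 669 and 696. The means were 52.1 ± 10.4 and 108 ± 23.7 (SD, n = 3 each), 2.08-fold higher on HFD. At these low counts the chow SD was 1.41 times the SD expected from counting alone. Slc45a3 encodes prostein, a carrier first described in prostate for which sugar transport has been reported, and lies on chromosome 1 from 131962967 to 131982969 (plus strand). It had 583, 876 and 574 normalized counts in the same order of chow mice and 425, 335 and 404 in the HFD mice. Mouse 695 stood above the other chow mice, and the groups were separated by 1.35-fold at their nearest mice. The means were 678 ± 172 and 388 ± 47.2 (SD, n = 3 each), 1.75-fold lower on HFD, and 1.49-fold lower without mouse 695. Of the exon bases of Slc45a3, 13.5% are shared with Gm29103, a processed transcript on the same strand, so part of its count cannot be assigned with certainty. The authors' deposited table gives log2 fold changes of 0.82 for Slc50a1 (SE 0.24, adjusted p = 0.0331) and -0.71 for Slc45a3 (SE 0.19, adjusted p = 0.0178).

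Of 31 genes on a list of hexose handling, 4 were listed as higher on HFD and 1 as lower, beside 0.861% and 0.484% of all genes tested. Of these 5, 3 are the carriers above. The list was drawn up with these carriers known to be listed, so they are the selection itself. The same holds for the carriers on the lists of metals, vitamins, phosphate, choline, nucleotide sugars and lysosomal carriers below. The other listed genes were Pklr, the liver pyruvate kinase gene, and Txnip, which encodes a thioredoxin-binding protein that limits glucose uptake. Pklr had 760, 1923 and 1579 normalized counts in chow mice 670, 695 and 707 and 3557, 2169 and 2964 in HFD mice 659, 669 and 696, 2.04-fold higher. Txnip had means of 1724 ± 388 and 3453 ± 1097 (SD, n = 3 each), 2.002-fold higher. Gm15441 is its antisense neighbour, so that reads of the pair may not be separable. Gm15441 was itself listed and went the other way, with means of 119.9 on chow and 23.97 on HFD.

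Slc35a4 belongs to the family of nucleotide sugar transporters, which supply sugar donors to the Golgi, although its own substrate is less settled. The gene lies on chromosome 18 from 36679215 to 36683861 (plus strand). Its chow mice were closely grouped, at 146, 156 and 156 normalized counts, and its HFD mice had 279, 235 and 265. The lowest HFD mouse was 1.4997-fold above the highest chow mouse. The means were 153 ± 6.08 and 260 ± 22.7 (SD, n = 3 each), 1.70-fold higher, the smallest ratio among the 8 carriers that were higher. Its chow coefficient of variation was 3.98%, the 14th lowest of the 336 rows, and the chow SD was 0.480 of that expected from counting alone. Slc35a4 was the 1 listed gene of 24 on a list of nucleotide sugar transport, beside 1.35% of all genes tested. The authors' deposited table gives Slc35a4 a log2 fold change of 0.69 (SE 0.17, adjusted p = 0.00659). Apbb3, on the opposite strand, covers 4.64% of its exon bases.

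The metal carriers went in opposite directions. Slc39a5 encodes ZIP5, which imports zinc and is found on the basolateral side of enterocytes and pancreatic acinar cells as well as in liver, and Slc30a10 encodes ZnT10, a manganese exporter of the zinc transporter family. Slc39a5, on chromosome 10 from 128395931 to 128401229 (minus strand), was the least abundant of the 10 carriers and the most variable. It had 9, 18 and 35 raw counts in chow mice 670, 695 and 707 and 103, 49 and 108 in HFD mice 659, 669 and 696. As normalized counts these were 8.79, 17.3 and 42.2 against 93.1, 52.7 and 94.97, so that the chow mice differed among themselves 4.80-fold. The 95% Poisson interval of chow mouse 707, 29.4 to 58.7, overlapped that of HFD mouse 669, 39.0 to 69.7, and these intervals cover counting error only. The means were 22.8 ± 17.4 and 80.3 ± 23.8 (SD, n = 3 each), 3.52-fold higher on HFD, and the ratio ran from 2.70 without chow mouse 670 to 6.16 without chow mouse 707. Of 10 pancreatic acinar markers and 6 enterocyte markers, 0 were among the rows analysed here, and the part of such cells in the Slc39a5 value was not tested.

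Slc30a10, on chromosome 1 from 185454848 to 185468762 (plus strand), had 606, 814 and 781 normalized counts in chow mice 670, 695 and 707 and 488, 312 and 368 in HFD mice 659, 669 and 696. All HFD mice were below all chow mice, and the nearest pair, chow mouse 670 and HFD mouse 659, differed 1.24-fold. The means were 734 ± 112 and 390 ± 89.8 (SD, n = 3 each), 1.88-fold lower on HFD. In both groups the SD exceeded the counting error, 4.03 times on chow and 4.69 times on HFD. The authors' deposited table gives a log2 fold change of -0.80 (SE 0.19, adjusted p = 0.00347) for Slc30a10 and 1.05 (SE 0.28, adjusted p = 0.0195) for Slc39a5. Gm2061, a long noncoding RNA gene on the opposite strand, shares 9.13% of the exon bases of Slc30a10. Of 43 symbols on a list of zinc, manganese and iron handling, 42 are in the GENCODE M21 annotation. Slc30a10 and Slc39a5 were the only genes of it listed, and of 8 copper genes 0 were listed, beside 1.35% of all genes tested.

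The promoter windows of the metal carriers are shown side by side because the genes differ in direction. Capitals mark the core of the metal response element, written TGCGCNC or TGCACNC, on either strand. The Slc30a10 window is chr1:185454598-185454897 (plus strand) and the Slc39a5 window is chr10:128401175-128401474 (minus strand, written 5′ to 3′ along the gene), both from RefSeq on GRCm38.p6.
Slc30a10: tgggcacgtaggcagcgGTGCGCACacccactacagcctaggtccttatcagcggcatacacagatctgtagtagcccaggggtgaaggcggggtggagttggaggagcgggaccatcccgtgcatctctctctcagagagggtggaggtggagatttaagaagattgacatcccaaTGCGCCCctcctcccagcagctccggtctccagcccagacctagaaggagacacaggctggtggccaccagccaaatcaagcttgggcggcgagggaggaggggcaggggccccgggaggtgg
Slc39a5: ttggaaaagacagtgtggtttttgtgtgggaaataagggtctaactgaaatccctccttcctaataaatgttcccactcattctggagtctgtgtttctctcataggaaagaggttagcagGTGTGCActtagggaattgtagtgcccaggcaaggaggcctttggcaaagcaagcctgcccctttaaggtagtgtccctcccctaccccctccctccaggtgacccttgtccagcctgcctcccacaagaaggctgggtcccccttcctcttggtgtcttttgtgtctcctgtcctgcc
Slc30a10 has TGCGCNC at 73 bases before the start site and a pair of overlapping matches on opposite strands at 233 and 232 bases before it. Slc39a5 has a single TGCACNC match, 129 bases before its start site, and a second annotated Slc39a5 window has none. TGCGCNC was present in 15.4% and TGCACNC in 12.6% of all windows. Either form was found in 6 of the 9 carriers with a window, 4 with TGCGCNC (Slc20a1, Slc30a10, Slc45a3 and Slc50a1) and 2 with TGCACNC (Slc39a5 and Slc46a3). Those shares are per window, and some carriers have more than 1 window. By window, TGCGCNC was in 4 and TGCACNC in 2 of the 13 windows of these carriers. The share of all windows with either form was not counted. A match is only a run of letters, and factor binding was not measured.

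Slc5a6 showed the clearest separation of the groups. It encodes SMVT, a sodium-dependent carrier of biotin, pantothenate and lipoate, cofactors or their precursors in carboxylation and acyl transfer, and lies on chromosome 5 from 31036036 to 31048924 (minus strand). Normalized counts were 110 in chow mouse 670, 139 in mouse 695 and 112 in mouse 707, and 314, 292 and 300 in HFD mice 659, 669 and 696. The lowest HFD mouse was 2.10-fold above the highest chow mouse, the widest gap among the 10 carriers. The means were 121 ± 16.1 and 302 ± 11.05 (SD, n = 3 each), 2.501-fold higher on HFD, with a range of 2.40 to 2.71 when each mouse in turn was left out. The HFD mice varied with a coefficient of variation of 3.66%, the 15th lowest of the 336 rows, and their SD was 0.652 of that expected from counting. The log2 fold change in the authors' deposited table was 1.18 (SE 0.18, adjusted p = 1.72e-08), which placed Slc5a6 25th of 336 by adjusted p. The remaining 9 carriers ranked between 130 and 309. Slc5a6 was the 1 listed gene of 31 on a list of vitamin and cofactor transport and use, beside 1.35% of all genes tested. That list also held the biotin-dependent carboxylases. Atraid, on the opposite strand, shares 9.92% of the exon bases of Slc5a6.

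Slc20a1 encodes PiT1, a sodium-phosphate cotransporter that takes up inorganic phosphate in most cell types, and lies on chromosome 2 from 129198764 to 129211616 (plus strand). It had 363, 470.4 and 316 normalized counts in chow mice 670, 695 and 707 and 889, 646 and 678 in HFD mice 659, 669 and 696. Mouse 659 was the highest HFD mouse, and the ratio of 1.92 became 1.73 without it. The means were 383 ± 79.0 and 738 ± 132 (SD, n = 3 each). Its log2 fold change in the authors' deposited table was 0.83 (SE 0.19, adjusted p = 0.00167). Of 18 symbols on a list of phosphate transport, 16 are in the GENCODE M21 annotation. Of these genes 2 were listed, Slc20a1 included, beside 1.35% of all genes tested. The other was Slc17a4, which encodes a phosphate and organic anion carrier. Slc17a4 was higher in the same mice, at 1140.4, 724 and 834 in HFD mice 659, 669 and 696 against 354, 410 and 202 in chow mice 670, 695 and 707, and its means differed 2.80-fold. In both phosphate genes mouse 659 was the highest and mouse 707 the lowest of the 6 mice. Over the 336 listed genes mouse 659 was the highest HFD mouse for 164 and mouse 707 the lowest chow mouse for 94. Gm4430 and 9830144P21Rik, on the opposite strand, together cover 13.1% of the exon bases of Slc20a1.

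The Slc20a1 promoter window is shown because it was the only one of the 13 windows with CACGTG, the E-box core bound by several basic helix-loop-helix factors, which stands in capitals. It covers chr2:129198523-129198822 on the plus strand (RefSeq, GRCm38.p6).
Slc20a1: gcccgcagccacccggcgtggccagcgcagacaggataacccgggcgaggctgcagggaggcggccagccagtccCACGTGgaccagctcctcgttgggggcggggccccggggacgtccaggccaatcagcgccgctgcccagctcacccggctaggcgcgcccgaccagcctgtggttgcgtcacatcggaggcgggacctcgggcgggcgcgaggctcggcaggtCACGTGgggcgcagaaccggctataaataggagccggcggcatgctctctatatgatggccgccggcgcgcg
The matches start 175 and 22 bases before the start site, and CACGTG occurred in 7.15% of all windows. The window has a GC content of 73.0%, the highest among these carriers.

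Slc44a3 encodes choline transporter-like protein 3, a member of a family named for choline uptake, and lies on chromosome 3 from 121459528 to 121532404 (minus strand). Its chow mice had 146, 128 and 145 normalized counts and its HFD mice 270.2, 231 and 217, with no overlap. The means were 139 ± 10.1 and 240 ± 27.4 (SD, n = 3 each), 1.72-fold higher, and the chow SD was 0.836 of the counting error. The authors' deposited table gives a log2 fold change of 0.70 (SE 0.18, adjusted p = 0.0109). Of 20 genes of choline and phosphatidylcholine metabolism 2 were listed, Slc44a3 included, in opposite directions, beside 1.35% of all genes tested. The other was Chka, the choline kinase gene that starts phosphatidylcholine synthesis, which was 1.91-fold lower, at 1156, 600.0 and 670 in chow mice 670, 695 and 707 and 511, 380.0 and 379 in HFD mice 659, 669 and 696. A530020G20Rik, on the opposite strand, shares 6.90% of the exon bases of Slc44a3.

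Slc46a3 encodes a carrier of the lysosomal membrane related to the proton-coupled folate transporter, and lies on chromosome 5 from 147878437 to 147894815 (minus strand). Normalized counts were 241, 236 and 152 in chow mice 670, 695 and 707 and 325, 480.1 and 383 in HFD mice 659, 669 and 696. Mouse 707 was low within the chow group and mouse 669 high within the HFD group. The means were 210 ± 50.1 and 396 ± 78.3 (SD, n = 3 each), 1.89-fold higher, and 1.66-fold higher without mouse 707. The authors' deposited table gives a log2 fold change of 0.78 (SE 0.20, adjusted p = 0.0154). Slc46a3 was the 1 listed gene of 20 on a list of lysosomal membrane carriers and proteins, beside 1.35% of all genes tested. Of those 20 symbols, 19 are in the GENCODE M21 annotation.

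**Figure D2:**
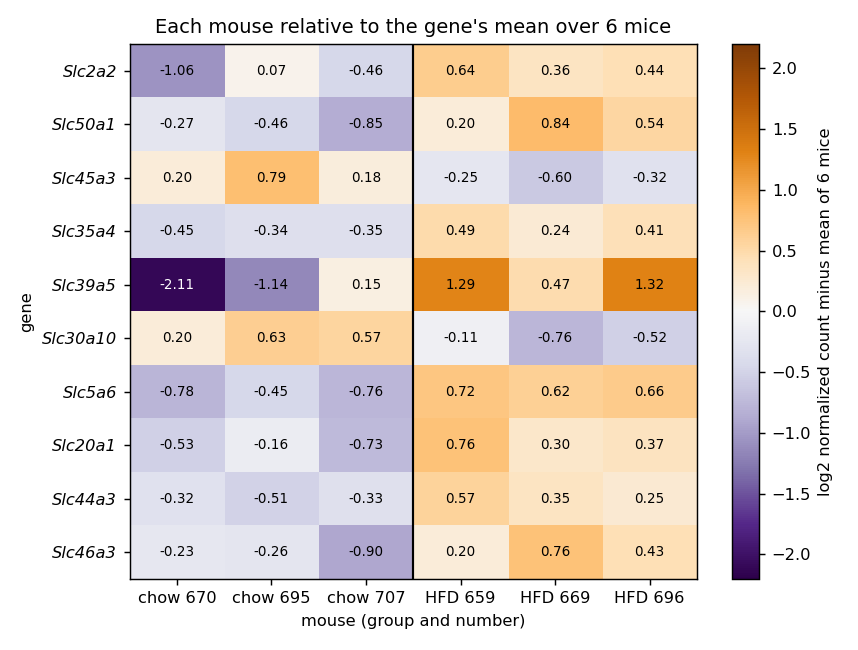
Log2 normalized count of each carrier (rows) in each mouse (columns, 3 chow and 3 HFD) minus the gene's mean over the 6 mice, as colour and number. Slc39a5 spans the widest range, from -2.11 in chow mouse 670 to 1.32 in HFD mouse 696, while within the HFD group Slc50a1 and Slc46a3 are highest in mouse 669 and 7 of the other carriers are highest in mouse 659.

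The order of the mice within a group differed from carrier to carrier. HFD mouse 659 was the highest of its group for 7 of the 10 carriers, including both that were lower on HFD, and for 164 of the 336 listed genes. HFD mouse 669 was the lowest of its group for 7 of the 10 (129 of the 336) and the highest for 2, Slc50a1 and Slc46a3 (92 of the 336). In the chow group mouse 695 was the highest for 6 of the 10 and for 127 of the 336. The median coefficient of variation over the 10 carriers was 20.2% on chow and 15.04% on HFD, against 22.1% and 18.0% over all listed genes. By the root mean square difference of centred log2 values over the 6 mice, Slc46a3 and Slc50a1 were each other's most similar row (0.10, against medians of 0.77 and 0.74 over the 313 rows compared with each). For Slc35a4 the most similar rows were Tle3 (0.08) and Rassf3 (0.09), and Rassf3 was also among the nearest to Slc44a3 (0.11), after Lyplal1 (0.10). Fbxo30 was the nearest row to Slc30a10 (0.11) and the second nearest to Slc45a3 (0.15), after Cacybp (0.11), with Cpeb4 (0.12) next to Slc30a10. The nearest rows were Robo2 (0.11) and Cadm3 (0.16) for Slc2a2, Nrg4 (0.15) and Tlr5 (0.16) for Slc5a6, and Fam102a (0.10) and Trim7 (0.11) for Slc20a1. Gas7 (0.17) was second for Slc50a1 and Hmgn2 (0.18) for Slc46a3. Slc39a5 had no close row, its nearest being Ccdc3 and Itgax (both 0.32). The 6 mice hold the diet difference that selected all of these rows, so likeness is given as a description.

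Levels were compared between genes only per length, as normalized counts per kb of annotated exon. Slc2a2 stood first in both groups, at 666 ± 254 per kb on chow and 1239 ± 128 per kb on HFD (SD, n = 3 each), and made up 51.8% and 61.3% of the summed level of the 10 carriers. On chow it was followed by Slc45a3 (190.3 ± 48.2 per kb), Slc30a10 (126 ± 19.2) and Slc46a3 (85.4 ± 20.4), and on HFD by Slc46a3 (161 ± 31.8), Slc20a1 (132 ± 23.7) and Slc45a3 (109 ± 13.2). Slc30a10 went from the third place on chow to the eighth on HFD, at 66.7 ± 15.4 per kb. Slc39a5 was last in both groups, at 10.2 ± 7.81 and 36.1 ± 10.7 per kb. Ranges of neighbours overlapped on chow for Slc46a3 with Slc20a1, Slc50a1 with Slc5a6 and Slc5a6 with Slc44a3, and on HFD for Slc46a3 with Slc20a1, Slc20a1 with Slc45a3, Slc35a4 with Slc5a6, Slc5a6 with Slc50a1 and Slc50a1 with Slc30a10, so those neighbours are not ordered beyond their spread. With the longest transcript as the length, Slc20a1 rose to the second place on HFD (222 per kb) and Slc44a3 from the ninth to the sixth (90.6 per kb).

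**Figure D3:**
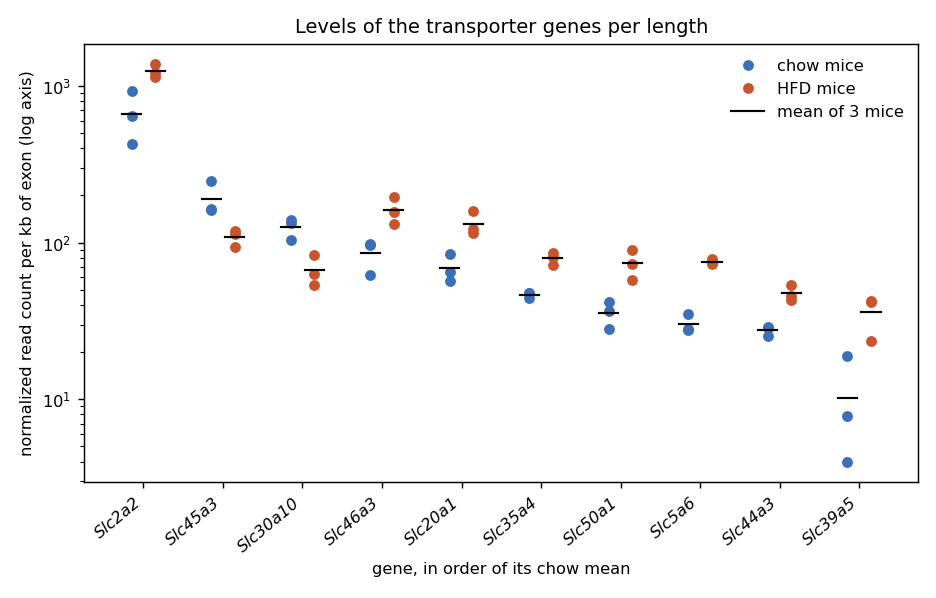
Normalized read count per kb of exon (vertical log axis) of the 10 carriers, ordered by their chow mean, with a point per mouse (blue chow, orange HFD) and a line at the mean of 3 mice. Slc2a2 is highest in both groups, at 666 and 1239 per kb, and Slc39a5 is lowest, at 10.2 and 36.1 per kb.

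Besides these 10 genes, 8 rows of the diet table have symbols that start with Slc, out of 385 protein-coding genes so named in GENCODE M21. Of the 18 rows, 14 were higher on HFD and 4 lower, that is 77.8% higher against 64.0% of all 336 rows. Slc17a4 is given above. Among the others, Slco1a4, which encodes an organic anion carrier of the sinusoidal membrane, was 4.48-fold higher, and Slc22a27, Slc22a29, Slc26a10 and Slc13a3 were 5.41-fold, 5.11-fold, 3.22-fold and 2.34-fold higher. Slc16a1, which encodes the monocarboxylate carrier MCT1, was 2.28-fold lower and Slco2a1, a prostaglandin carrier gene, 2.87-fold lower. For all 8 the groups did not overlap, which was also so for 99.4% of all listed genes. The median absolute log2 ratio of group means was 1.604 over these 8 rows and 0.91 over the 10 carriers, against 1.11 over the 334 rows with counts in both groups.

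**Figure D4:**
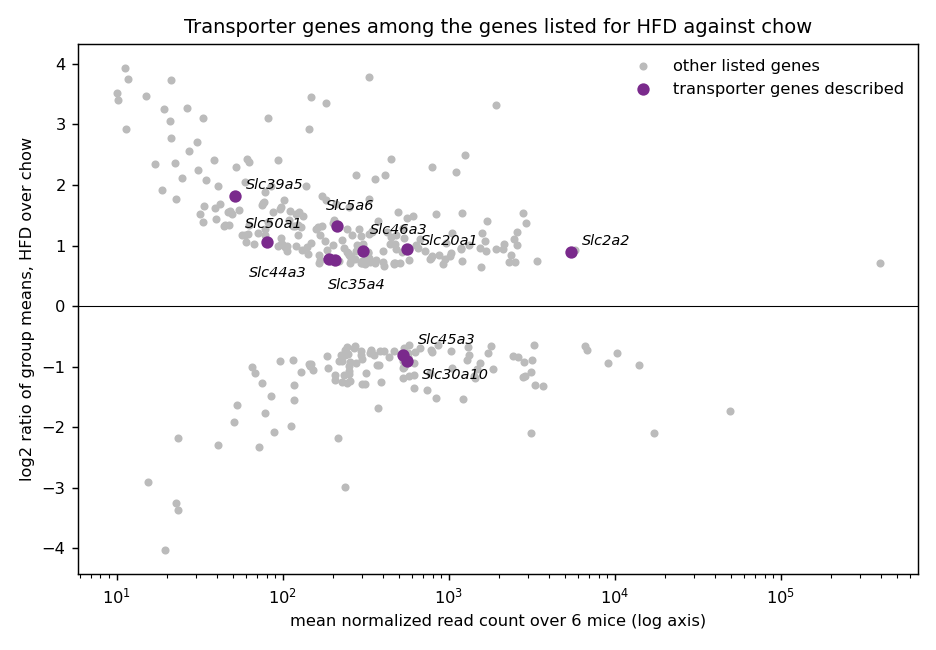
Log2 ratio of group means, HFD over chow (vertical axis), against the mean normalized read count over 6 mice (horizontal log axis) for the 334 listed genes with counts in both groups, with the 10 carriers in purple. The 8 carriers that are higher on HFD lie between 0.77 for Slc35a4 and 1.82 for Slc39a5, and the lower ones at -0.81 and -0.91 for Slc45a3 and Slc30a10.

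Of 10 stellate cell markers 3 were listed as higher on HFD (Col1a1, Col1a2 and Col3a1), beside the 0.861% of all genes tested that were so listed, and their summed normalized counts ran from 424 to 470.0 in chow mice and from 1363 to 2847 in HFD mice, with none at 0. Of 10 Kupffer cell and macrophage markers 2 were listed as higher (Itgax and Mmp12), with sums of 12.5 to 25.3 on chow and 71.2 to 119 on HFD. Both sums hold only markers listed for differing between the diets and leave out the unlisted markers of each type. Their separation between the groups follows from that listing and is not a measure of the cell types. Of 8 cholangiocyte, 6 endothelial, 7 lymphocyte, 5 adipocyte, 5 erythroid and 5 kidney tubule markers 0 were listed, and markers outside the table have no values here. The part of these cells in the values of the 10 carriers was not tested.

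The PCN against vehicle contrast was not used to choose these genes. Of the 10 carriers 0 were among the 33 rows of the PCN table, which hold 0.131% of about 25270 genes tested. That deposited table of the authors goes down to 0.60 in absolute log2 fold change and up to 0.0955 in adjusted p. The values of the 10 carriers in vehicle and PCN mice were therefore not analysed here. The only row of that table whose symbol starts with Slc was Slc8a1, which encodes a sodium-calcium exchanger. It had 605, 414 and 436 normalized counts in vehicle mice 682, 697 and 705 and 1183, 909 and 868 in PCN mice 688, 698 and 706, with no overlap. Its means were 485 ± 105 and 987 ± 171 (SD, n = 3 each), 2.04-fold higher with PCN, and the adjusted p of the authors' DESeq2 columns was 0.000535 in their deposited table.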

How the data were processed

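RNA-seq of mouse liver was analysed from 2 deposited tables, HFD against chow (336 rows) and PCN against vehicle (33 rows), with mice grouped by their titles. Each deposited table holds whole-number read counts of single mice, per the file headers. It also holds the authors' own mean, log2 fold change with its standard error, and p-values before and after adjustment. The submitters' processing notes name HISAT2, HTSeq, DESeq2 and GRCm38 (mm10); no versions, settings or use of strand are stated there. The rows are genes the authors selected (absolute log2 fold change of at least 0.60, adjusted p at most 0.0474 for diet), so scaling or adjusting over them alone repeats that selection. Size factors were solved from the authors' mean column (largest gap 0.00509 counts), and the number of genes tested (about 24980) from adjusted p, p and rank. Calls are therefore the authors' own, at an adjusted p under 0.05.

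Refits used edgeR 4.0.16 (quasi-likelihood; with recovered size factors, rows with at least 10 counts in 3 mice, or in 2 where a mouse was left out, and 15 in all; with TMM, filterByExpr) and DESeq2 1.42.0 in R 4.3.3, tested on simulated data. Other steps used Python 3.11.15 and pandas 2.3.3. All 336 IDs were found in GENCODE M21, 322 with identical positions, and positions are 1-based on GRCm38. Exon length is the merged length of all annotated exons. Promoter windows of 300 bases (RefSeq, GRCm38.p6) were held for 9 of the 10 genes, in 13 windows; Slc35a4 is the gene without one. The 15 motifs, chosen after the values were seen, were searched on both strands, with shares counted per window and carriers counted per gene. Those not described with the promoters were found in these shares of all windows: GCGTG in 32.4% (5 carriers), TNGCGTG, which contains it, in 5.07% (0 carriers), the GC box GGGCGG in 35.7% (8 carriers), the TATA box TATAAA in 13.6% (2 carriers), TGANNNNGC in 41.3% (6 carriers), TTGCNNAA in 10.8% (Slc39a5), TGTTTAC in 3.65% (Slc5a6), TGACCTTTG in 0.478% (0 carriers), TCACNCCAC in 1.24% (0 carriers), the HNF1 palindrome in 0.00913% (0 carriers) and the DR1 direct repeat in 0.0396% (0 carriers). The genes described, the gene lists and the rules were chosen with earlier results of these data known. Named besides the 10 are all other Slc rows, listed members of the lists, and for each carrier the 2 rows nearest by root mean square difference of log2(normalized count + 1) over 6 mice, without predicted names. The labels do not say more on how samples were taken than 1 liver per mouse title, so the spread is that between these libraries.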

Additional observations from a re-analysis of the deposited data

How the results depend on the processing

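Of the 10 carriers, 8 were called higher and 2 lower by the authors' test. With the limit on adjusted p set to 0.01 this became 3 and 1, with a deposited log2 fold change of 1 or more in size it became 2 and 0, and with Bonferroni adjustment 1 and 0. These rules held for 206, 127 and 94 of the 336 listed rows. With recovered size factors and adjustment over all genes tested, edgeR gave 0 and 0 with or without the filter on low counts. It also gave 0 in each direction when each of the 6 mice was left out in turn (1 to 7 of the listed rows called). All 10 had an unadjusted p under 0.05 in each of these fits. The same contrast chose these genes, so that is not support. The share of all listed rows with an unadjusted p under 0.05 was not counted. DESeq2 gave 2 and 0. With TMM scaling, its own filter and adjustment over the listed rows alone, edgeR gave 1 higher and 2 lower; that scaling moves the median log2 ratio by -0.64. Over all listed rows fitted, the calls higher and lower were 8 and 1 of 330 for edgeR with recovered size factors, 105 and 54 of 336 for DESeq2, and 67 and 119 of 330 for edgeR with TMM. The causes of these gaps were not tested. Of 110 log2 ratios under alternatives, 98 stayed within 1 SD of the reported value, 12 moved further and 0 changed sign. Most of the moves came from TMM scaling, under which every carrier except Slc39a5 moved further. With it Slc35a4 went from 0.77 to 0.13, Slc2a2 from 0.90 to 0.26 and Slc30a10 from -0.91 to -1.56. The other moves were Slc35a4 and Slc44a3 without scaling and Slc5a6 in the authors' deposited value. Leaving out 1 mouse moved a ratio by over 1.5 times only for Slc39a5 (6.16-fold without chow mouse 707). The SD of 3 mice was below that expected from counting for Slc35a4 and Slc44a3 on chow and Slc5a6 on HFD (0.480, 0.836 and 0.652 of it). The reason was not tested. No paired analysis was possible because the mouse numbers are not shared between groups.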

Other observations

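Of the 4 hexose-handling genes that were higher on HFD, 3 (Slc2a2, Pklr and Txnip) had the same lowest and highest chow mouse, and Slc50a1 did not: it was highest in mouse 670 (61.6) and lowest in mouse 707 (41.0). In mouse 670 the other 3 stood at 2436, 760 and 1347 normalized counts, and in mouse 695 at 5352, 1923 and 2122, with mouse 707 between them in each gene. Chka, which was lower on HFD, was highest in mouse 670, at 1156 against 600.0 and 670 in the other chow mice. Slc45a3, the hexose-handling gene that was lower on HFD, was highest in mouse 695 and lowest in mouse 707. Over all 336 listed rows, mouse 670 was the lowest chow mouse for 134 and mouse 695 the highest for 127, more than any other chow mouse. How many rows hold both places at once, as Slc2a2, Pklr and Txnip do, was not counted. The order seen in these genes was noticed after the values were seen, rests on 3 chow mice and was not tested.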
